A study of Mus musculus with 10 samples.

Results

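Bcl6, Mybl1, Rgs13, Pou2af1, Fas, Spib and Mef2b are 7 genes active in germinal centre B cells, and they were followed here across 10 spontaneous mouse lymphomas. The members were all non-control probes that carry one of these gene names on the array, which gave 11 of 41174 probes. Of these, 10 passed the filter on dim probes, a signal well above background in 3 or more of the 10 tumours, which 26410 probes passed under 17815 gene names. The tumours came from 5 +/L mice, heterozygous for an allele of C/EBPβ that yields its short LIP isoform, and from 5 +/+ mice of the same cohort, wild type at that locus. The +/L mice 20, 866, 688, 23 and 517 were killed with palpable lymphoma at 21, 11, 18, 20 and 20 months, and the +/+ mice 40, 11, 101, 17 and 19 at 26, 29, 26.5, 20 and 23 months. All tumours arose without treatment, and the frozen tissue left after histology was hybridised to 1 single-colour Agilent array per mouse. The labels give no lymphoma class, so each tumour is a mixture of unknown makeup. In such bulk samples, fewer cells of a type and less RNA per cell cannot be told apart.

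The germinal centre is the structure in lymphoid follicles where antigen-activated B cells divide, mutate their antibody genes and are selected. BCL6 is the transcriptional repressor that holds B cells in this state, and its loss allows them to become plasma cells through IRF4, BLIMP1 (Prdm1) and XBP1. Many human B-cell lymphomas are thought to derive from germinal centre cells, and MEF2B, which can activate BCL6, is mutated in some of them. OBF-1 (Pou2af1) is the coactivator of the octamer-binding OCT factors and is needed for germinal centres to form. Spi-B (Spib) is an ETS factor of B cells related to PU.1, A-MYB (Mybl1) is a MYB factor of dividing germinal centre cells, RGS13 shortens chemokine receptor signals, and FAS is the death receptor carried by germinal centre B cells.

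The probes that carry the main comparisons are shown first, with the strand and position the files give in mm9, 5′ to 3′ in the sense of the transcript. Annotation of exons, introns and UTRs was not used for them. The Mef2b probe on the RefSeq record is given whole and the others by their first 30 bases, to show which transcripts were read.
Rgs13, A_52_P10054, minus strand, chr1:145986521-145986550: agggagaaaggaaacagaaaccaagtcctg
Mef2b, A_51_P330580, plus strand, chr8:72691181-72691210: gtagcgctccaagaggttcctccagcctcc
Mef2b, A_52_P9878, plus strand, chr8:72689001-72689060: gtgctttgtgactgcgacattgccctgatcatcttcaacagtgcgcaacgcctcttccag
Named Mef2b, A_51_P348617, plus strand, chr8:72671054-72671083: ctactgattctgccataattgtctaccttg
Bcl6, A_52_P161495, minus strand, chr16:23965190-23965219: cagggtttggctgtgtctaaactgcattag
Fas, A_51_P345393, plus strand, chr19:34401902-34401931: caactcctggtgtgttctctttgccagcaa
Fas, A_52_P73385, plus strand, chr19:34383733-34383762: ggagagactctttaaaatgaaaacacaata

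Every level below is on the log2 scale, relative to the 75th percentile of the processed signals of that array, so a level can be compared between tumours but not between probes. That percentile lay between 309 and 651 in +/L and between 199 and 340 in +/+ tumours, and 48.0% to 64.7% of spots in +/L and 52.9% to 66.7% in +/+ tumours were well above background. The file headers give 3 scan times, taken here as 3 slides, with 2, 2 and 1 +/L and 2, 1 and 2 +/+ tumours. The sample descriptions give another slide for +/L mouse 866 and +/+ mouse 17, with 3, 2 and 0 +/L and 1, 1 and 3 +/+ tumours, and slide values below follow the headers unless stated. The number of arrays limits the precision. Against their male label, +/L mouse 20 and +/+ mouse 11 had Xist well above background and none of Ddx3y, Eif2s3y and Kdm5d, so 2 of 10 arrays did not match their sex label. Results are therefore also given without these mice. The B-cell gene Cd79a and the T-cell gene Cd3e were well above background on all 10 arrays. Cd79a read -1.52 in +/L mouse 866 and between 0.63 and 1.55 in the other tumours.

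Rgs13 and Mef2b varied most widely and moved together. Rgs13 read -0.92, -0.23, 0.08, 1.69 and 2.64 in +/L mice 20, 517, 866, 23 and 688, and -4.14, -0.76, 0.80, 2.63 and 2.76 in +/+ mice 17, 40, 19, 101 and 11. The groups overlapped over the whole +/L range, and the lowest tumour, +/+ mouse 17, was 120-fold below the highest. Mef2b, at its brightest probe, read 2.37, 2.81, 3.01, 3.97 and 4.79 in +/L mice 517, 866, 20, 23 and 688, and 1.31, 2.82, 4.48, 5.97 and 6.02 in +/+ mice 17, 40, 19, 101 and 11. The order of the +/+ tumours was the same for both genes, and +/L mice 23 and 688 were the highest +/L tumours for both. The SD over the 10 tumours was 2.15 for Rgs13 and 1.56 for Mef2b, above that of 98.5% and 95.2% of the probes kept.

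Of the 3 probes named Mef2b, 2 moved as one and 1 traced to a neighbouring gene. The probe on the RefSeq record of Mef2b (A_52_P9878) read -1.48, -0.95, -0.86, 0.04 and 1.21 in +/L mice 517, 866, 20, 23 and 688, and -2.49, -1.13, 0.47, 1.74 and 1.93 in +/+ mice 17, 40, 19, 101 and 11. Within each genotype this is the tumour order of the brightest probe (A_51_P330580), with Pearson's r = 0.995 and Spearman's rho = 0.988 between them over 10 tumours. The permutation p was 1e-05, the smallest that 100000 resamples can give, and 5e-05 when adjusted over 5 pairs of probes of one gene. The other probe (A_51_P348617) was designed on a cDNA clone whose name, with the suffix Rik, is a synonym of Borcs8 in RefSeq, the gene listed just before Mef2b on chromosome 8. It read 2.89, 2.99, 3.52, 3.55 and 3.77 in +/L mice 866, 20, 517, 23 and 688, and 3.26, 3.82, 3.85, 4.25 and 4.396 in +/+ mice 17, 40, 19, 11 and 101. Its spread over the tumours was narrower (SD 0.49, against 1.47 and 1.56 for the other 2 probes), with r = 0.787 and 0.754 to them (permutation p = 0.0082 and 0.0127, adjusted 0.0136 and 0.0159). It is not taken as a measure of Mef2b below, except in the alternative that averages all kept probes of a gene name. It stays among the 10 probes counted, with a difference between +/L and +/+ tumours of -0.57 (limma adjusted p = 0.63).

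**Figure D1:**
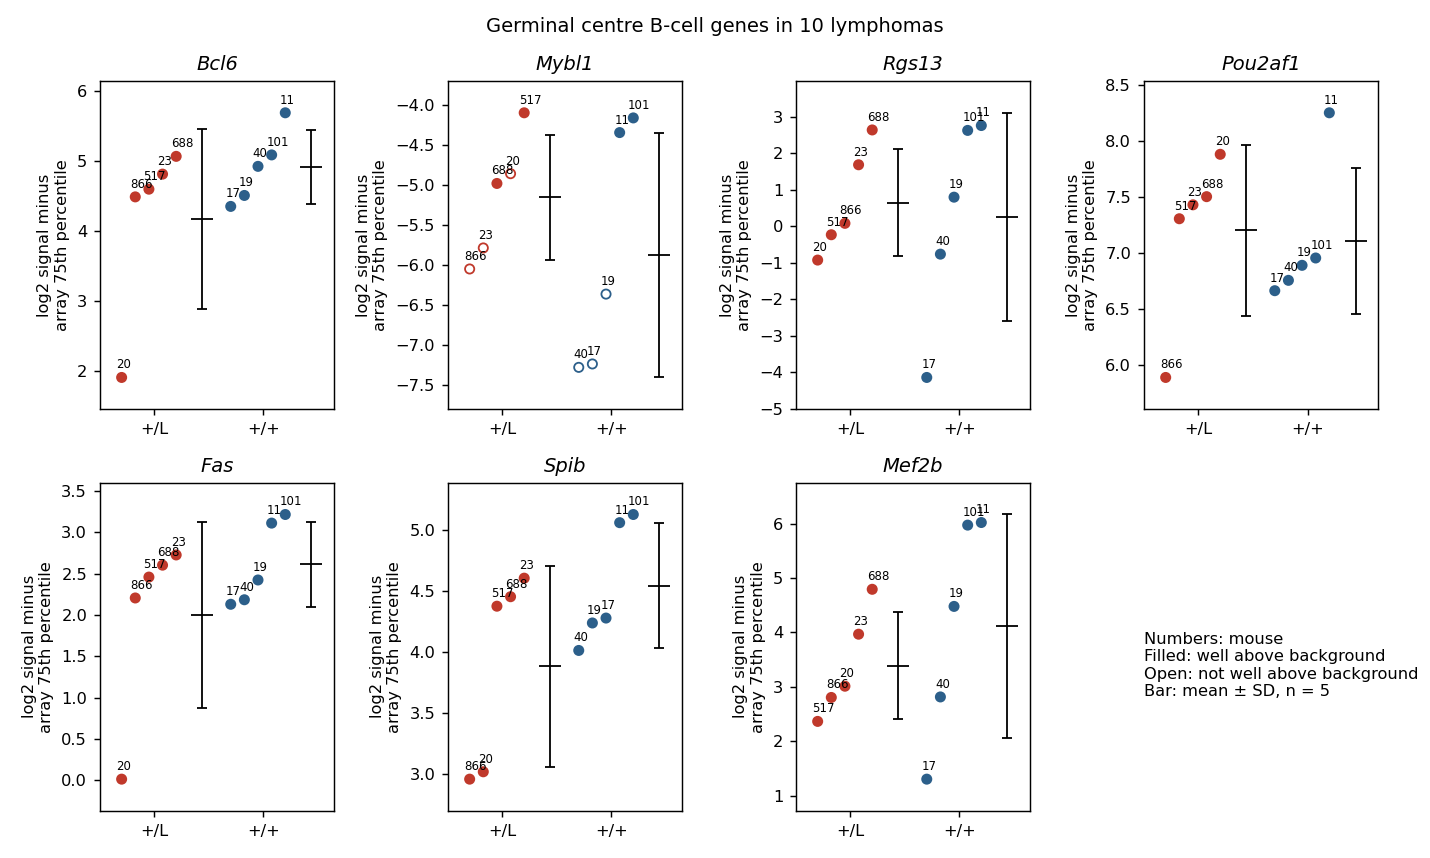
Level of each gene at its brightest probe in 5 +/L (left, red) and 5 +/+ (right, blue) tumours; the y axis is the log2 signal relative to the 75th percentile of the array, each point is 1 tumour with its mouse number, open points are not well above background, and bars are mean ± SD. The groups overlap in all 7 panels, +/L mouse 20 is far below the other +/L tumours for Bcl6 and Fas, and +/+ mouse 17 is the lowest tumour for Rgs13 and Mef2b.

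In Bcl6, Fas and Spib, +/L mouse 20 was at or near the bottom and +/+ mice 11 and 101 were at the top. This was not particular to them. Ranked from the highest tumour, Rgs13 was 9 in mouse 20, 1 in mouse 11 and 3 in mouse 101. Bcl6 read 1.91, 4.48, 4.59, 4.81 and 5.06 in +/L mice 20, 866, 517, 23 and 688, and 4.35, 4.51, 4.92, 5.08 and 5.69 in +/+ mice 17, 19, 40, 101 and 11. The tumour of mouse 20 stood apart, and the other 9 tumours lay between 4.35 and 5.69. Fas read 0.01, 2.21, 2.46, 2.60 and 2.73 in +/L mice 20, 866, 517, 688 and 23, and 2.13, 2.18, 2.42, 3.11 and 3.22 in +/+ mice 17, 40, 19, 11 and 101. The same +/L tumour was again lowest, and +/+ mice 101 and 11 were highest. The Fas probe was spotted 10 times on every array, and the SD between its spots was 0.034 to 0.12 (median 0.061), against an SD of 0.89 between tumours. Spib read 2.96, 3.02, 4.38, 4.45 and 4.61 in +/L mice 866, 20, 517, 688 and 23, and 4.01, 4.24, 4.28, 5.06 and 5.13 in +/+ mice 40, 19, 17, 11 and 101. Here 2 +/L tumours, those of mice 866 and 20, were below all others, and +/+ mice 11 and 101 were again highest.

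In +/L mouse 20, other transcripts marked the same tumour as unlike the rest. It was chosen for this description after its values were seen. Its plasma cell list score, the mean over 8 genes of the deviation from each gene's mean over the tumours, was 1.67, against -1.51 to 0.58 in the other +/L and -0.28 to 0.29 in the +/+ tumours. Irf4, a factor of plasma cell differentiation, stood there at 2.76, with the other +/L tumours at -1.09 to 0.61 and the +/+ tumours at 0.55 to 1.90. Prdm1, which encodes BLIMP1, stood at 1.87, with the other +/L tumours at -0.58 to 0.23 and the +/+ tumours at 0.23 to 1.202. Xbp1, the secretory pathway factor, stood at 4.15, with the other +/L tumours at 1.76 to 3.17 and the +/+ tumours at 2.15 to 3.60. Of the rest of the list, Sdc1, Mzb1 and Tnfrsf17 were also highest in this tumour. Jchain and Prg2 were not. Jchain read 7.63, below +/L mouse 517 at 8.02, and Prg2 read 0.27, below its means of 0.83 in +/L and 0.80 in +/+ tumours. Its T-cell score was -1.73, its T follicular helper score -1.92 and its pan-leukocyte score -1.17, each the lowest of the 10. Its plasmacytoid dendritic cell score, 1.09, was the highest of the 10. Counted from the highest of the 10 tumours, Pou2af1 ranked 2 and Mef2b 6 in this tumour. The part of cell makeup in its values was not tested.

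Pou2af1 was bright in every tumour and followed neither pattern. It read 5.89, 7.31, 7.43, 7.50 and 7.88 in +/L mice 866, 517, 23, 688 and 20, and 6.66, 6.75, 6.89, 6.95 and 8.25 in +/+ mice 17, 40, 19, 101 and 11. The lowest tumour was +/L mouse 866, where Cd79a and Spib were lowest too and the B-cell score was -1.71. The 2 highest were +/+ mouse 11 and +/L mouse 20, and mouse 20 had the lowest Bcl6.

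Mybl1 lay near the limit of detection. Its brighter probe (A_52_P589622, chr1:9661738-9661797, minus strand) cleared the background in 4 tumours, 2 of each genotype, those of +/L mice 517 and 688 at -4.10 and -4.98 and of +/+ mice 101 and 11 at -4.16 and -4.34. Readings on the other arrays were -6.05 to -4.86 in +/L tumours and -7.28 to -6.37 in +/+ tumours, not well above background and of no reliable order. Its other probe (A_51_P180761, chr1:9666066-9666125) was not well above background on any array and was not tested. The tumours of mice 11 and 101 were the 2 highest +/+ tumours for Mybl1, as they were for each of the other 6 genes.

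**Figure D2:**
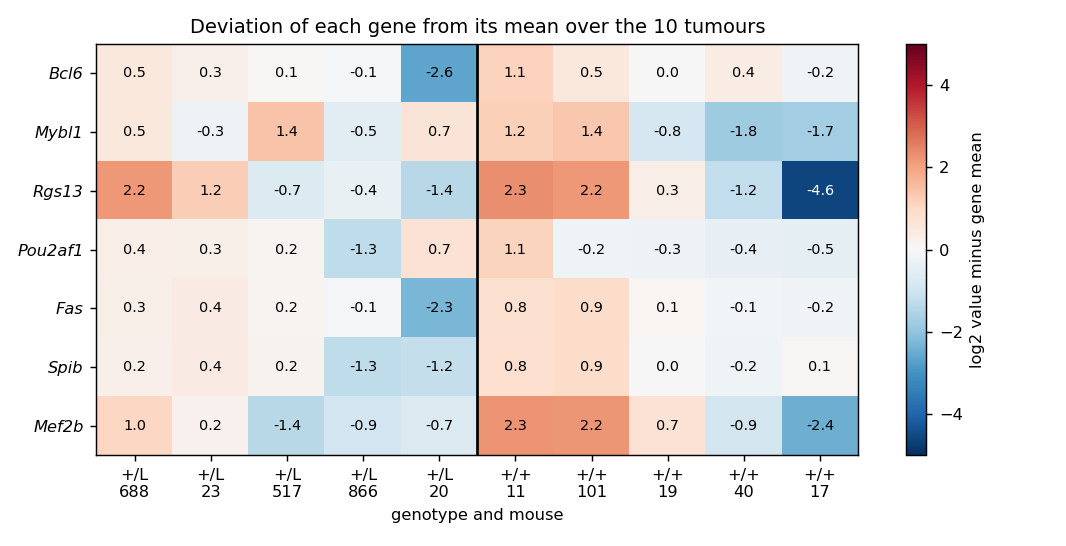
Deviation of each gene (rows) from its own mean over the 10 tumours (columns, 5 +/L on the left and 5 +/+ on the right of the line), on the log2 scale, red above and blue below the mean. The tumours of +/+ mice 11 and 101 are above the mean for 7 and 6 of the 7 genes, and that of +/L mouse 20 is below it for Bcl6, Fas, Spib, Rgs13 and Mef2b and above it for Pou2af1 and Mybl1 (not well above background there).

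Ranked within each of the 6 genes other than Mybl1, the tumour of +/+ mouse 11 was among the 3 highest for 6 genes, +/+ mouse 101 for 5 and +/L mouse 688 for 4. At the other end, +/+ mouse 17 was among the 3 lowest for 5 genes, and +/L mice 20 and 866 and +/+ mouse 40 for 4 each. High and low tumours were thus found in both genotypes.

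Co-variation between the genes was measured over the 21 pairs. Pearson's r was positive in 19 pairs, with a median of 0.49, while 44.4% to 58.5% of all probes kept had a positive r to each gene. The 6 pairs with Mybl1 rest mostly on readings not well above background, and the other 15 also had a median of 0.49, with 13 positive. In all, 4 pairs passed an adjusted permutation p of 0.05 (6 pairs by Spearman's rho). Rgs13 and Mef2b had r = 0.91 (permutation p = 0.00013, adjusted over 21 pairs 0.0027) and rho = 0.87 (p = 0.0019, adjusted 0.013). Without +/+ mice 17 and 11, the tumours farthest from the median of Rgs13, r was 0.88 (exact permutation p = 0.0050). It was 0.97 with genotype means removed, 0.90 with slide means removed (0.95, adjusted p = 0.073 in an exact permutation, with the slides of the descriptions), and 0.90 to 0.93 when any 1 tumour was left out. Of all probes kept, 0.076% had an r to Rgs13 as high as that of Mef2b, and 0.38% had one to Mef2b as high as that of Rgs13. This pair was the only one to pass without mice 20 and 11, with r = 0.90 (exact permutation adjusted p = 0.042).

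Bcl6 and Fas had r = 0.96 (permutation p = 0.00099, adjusted 0.0069) and rho = 0.84 (p = 0.0032, adjusted 0.017). Without +/L mouse 20, r was 0.77 (exact permutation adjusted p = 0.043), and the pair passed with any 1 tumour left out. Without mice 20 and 11, the farthest from the median of Bcl6, it was 0.68 (exact permutation p = 0.052). Fas and Spib had r = 0.79 (permutation p = 0.00051, adjusted 0.0054) and rho = 0.88 (p = 0.0014, adjusted 0.013). Without +/L mouse 20 and +/+ mouse 101, the farthest for Fas, r was 0.74 (exact permutation p = 0.045), and without mice 20 and 11 it was 0.75 (exact permutation adjusted p = 0.12 over 8 tumours). It was 0.80 without mouse 20, and the pair passed with any 1 tumour left out (largest exact permutation adjusted p = 0.034). Bcl6 and Spib had r = 0.73 (permutation p = 0.0059, adjusted 0.031) and rho = 0.77 (p = 0.012, adjusted 0.043). Without mice 20 and 11, the farthest for Bcl6, r was 0.54 (exact permutation p = 0.17), so the test did not hold over the other 8 tumours. It was 0.63 without mouse 20, 0.68 without mouse 11 and 0.90 without mouse 866 (exact permutation adjusted p = 0.11, 0.16 and 0.023). With mouse 20 included, 0.034% of all probes kept had an r to Bcl6 as high as that of Fas, but 3.93% one as high as that of Spib. Likewise, 2.42% had an r to Fas as high as that of Spib. With slide means removed the Bcl6 and Fas, Fas and Spib, and Bcl6 and Spib pairs had r = 0.97, 0.81 and 0.69, and 0.97, 0.69 and 0.70 with the slides of the descriptions, where Bcl6 and Fas alone of the 21 pairs passed (exact permutation adjusted p = 0.049).

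Some pairs that did not pass by Pearson's r over all tumours passed with 1 tumour left out. Without mouse 20, 9 of the 21 pairs passed in place of 4, and without +/+ mouse 17 it was 7, with Rgs13 joined to Bcl6, Fas and Spib (r = 0.65, 0.72 and 0.77; exact permutation adjusted p = 0.022, 0.0055 and 0.039). Fas and Mef2b had r = 0.52 over all tumours (permutation p = 0.12) and 0.89 without mouse 20 (exact permutation adjusted p = 0.018). Rgs13 and Fas had r = 0.53 (permutation p = 0.12), rho = 0.89 (p = 0.0010, adjusted 0.013), and r = 0.80 without mouse 20 (exact permutation adjusted p = 0.037). For Bcl6 and Rgs13, r was 0.48 (permutation p = 0.14) and rho 0.82 (permutation p = 0.0054, adjusted 0.023). For Bcl6 and Mef2b, r was 0.45 (permutation p = 0.19), and 0.79 without mouse 20 (exact permutation adjusted p = 0.042). Bcl6 and Pou2af1 had r = -0.08 (permutation p = 0.81) and 0.76 without mouse 20 (exact permutation adjusted p = 0.0497). In that tumour Bcl6 was lowest of the 10 and Pou2af1 second highest.

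**Figure D3:**
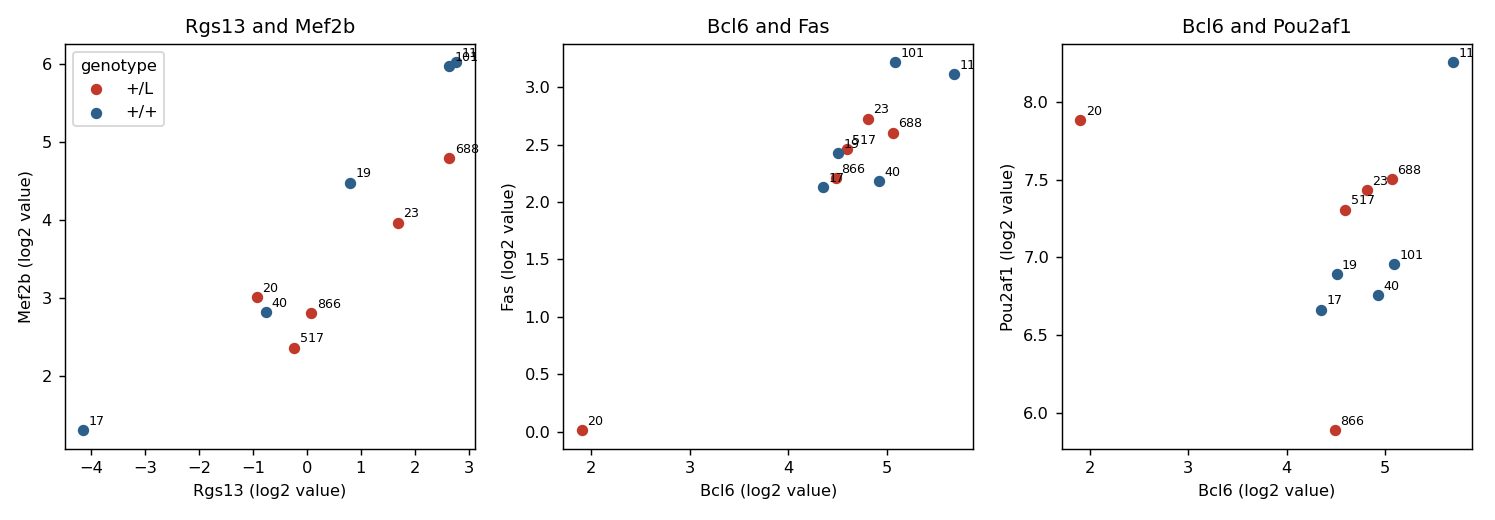
Pairs of genes across the 10 tumours, both axes log2 values relative to the array's 75th percentile, with mouse numbers beside the points (+/L red, +/+ blue). Rgs13 and Mef2b rise together over the whole range (r = 0.91), +/L mouse 20 stands apart at the lower left for Bcl6 and Fas (r = 0.96, and 0.77 without it), and Bcl6 and Pou2af1 part in that tumour (r = -0.08).

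The genes were next set against marker scores of B cells, T cells and mitosis, in 21 relations. None passed after adjustment (smallest adjusted permutation p = 0.17), and 3 had an unadjusted p under 0.05 by Pearson's r. These were Mef2b with the mitosis score (r = 0.75, permutation p = 0.016; rho = 0.67, p = 0.039), Spib with the B-cell score (r = 0.74, p = 0.011; rho = 0.66, p = 0.045) and Pou2af1 with the mitosis score (r = 0.69, p = 0.026; rho = 0.64, p = 0.055). Without +/+ mice 11 and 101, the 2 tumours farthest from the median of the mitosis score and both at its top, the r of Mef2b was 0.42 (exact permutation p = 0.30). Without mouse 20, 2 other relations passed, Fas and Bcl6 with the mitosis score (r = 0.90 and 0.83, exact permutation adjusted p = 0.034 and 0.046), where r over all tumours was 0.23 and 0.18. Rgs13 and Mef2b had r = 0.22 and 0.21 with the B-cell score (permutation p = 0.52 and 0.58). With that score regressed out of both genes their r was 0.91, but values so low leave little to remove. The mitosis score, with r = 0.62 to Rgs13 (permutation p = 0.052), was not regressed out. The mitosis scores were 1.03 and 0.73 in +/+ mice 11 and 101, the tumours with the highest Mef2b. They were -0.64 to -0.31 in the other +/+ tumours and -0.58 to 0.38 in the +/L tumours.

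**Figure D4:**
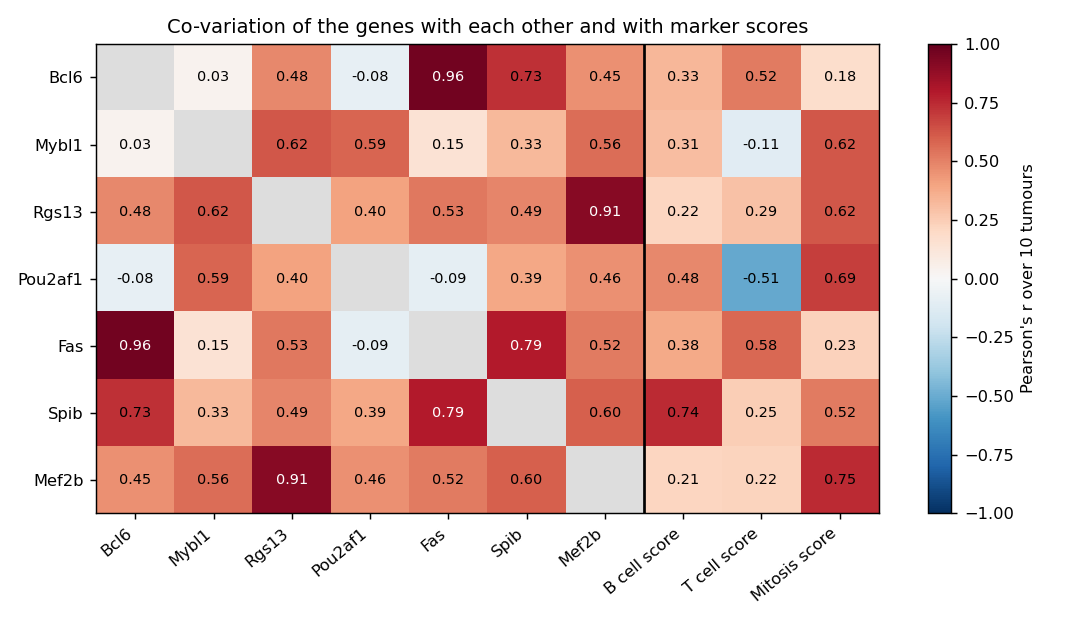
Pearson's r over 10 tumours between the 7 genes (left of the line) and of each gene with the B-cell, T-cell and mitosis scores (right of the line), red positive and blue negative. Bcl6 with Fas (0.96) and Rgs13 with Mef2b (0.91) are the 2 highest, and the lowest is Pou2af1 with the T-cell score (-0.51).

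Whether the genotypes differ in these genes was asked with limma over all probes kept. None of the 7 genes passed, and no probe of the table did (0 of 26410, or 0%, at an adjusted p under 0.05 in limma). At an unadjusted p under 0.05 it was 0 of 7 genes, against 7.96% of all probes, and the groups overlapped in all 7 genes, where 1.79% of all probes had groups that did not overlap. The mean was lower in +/L for 4 genes and higher for 3, with a median difference of -0.61 over the 7 genes and 0.01 over all probes. Bcl6 averaged 4.17 ± 1.29 in the 5 +/L and 4.91 ± 0.53 in the 5 +/+ tumours (mean ± SD here and below), and differed by -0.74 ± 0.56 (SE; limma adjusted p = 0.76). Without mice 20 and 11 the difference was 0.02. Fas averaged 2.0 ± 1.13 in +/L and 2.61 ± 0.52 in +/+ tumours, a difference of -0.61 (95% confidence interval -1.74 to 0.51, limma adjusted p = 0.79), and 0.01 without mice 20 and 11. Spib averaged 3.88 ± 0.82 in +/L and 4.54 ± 0.51 in +/+ tumours, and its difference of -0.66 had the lowest p of the 7 genes (exact permutation p = 0.19, limma adjusted p = 0.70). It was -0.32 without mice 20 and 11, and -0.02 with age as a covariate. The +/L mice were 11 to 21 and the +/+ mice 20 to 29 months old. Differences with age as a covariate, here and below, therefore hardly separate genotype from age. None of the 7 genes passed with that covariate (limma adjusted p = 0.86 to 0.997).

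For Rgs13 and Mef2b the intervals were wide. Rgs13 averaged 0.65 ± 1.47 in +/L and 0.26 ± 2.85 in +/+ tumours, a difference of 0.39 with a 95% confidence interval of -2.41 to 3.19 (limma adjusted p = 0.95). It was 1.41 without mice 20 and 11, and 2.39 with age as a covariate (limma adjusted p = 0.89). Mef2b averaged 3.39 ± 0.98 in +/L and 4.12 ± 2.05 in +/+ tumours, a difference of -0.73 with an interval of -2.72 to 1.26 (limma adjusted p = 0.87). It was -0.16 without mice 20 and 11, and 0.75 with age as a covariate. Within the 3 slides Rgs13 differed by 3.31, -2.03 and -1.63 and Mef2b by 1.84, -2.85 and -2.42, so the sign turned between slides. The first slide held +/+ mouse 17, whose slide the descriptions give otherwise. With the slide as a block they differed by 0.37 and -0.72, and by -0.24 and -0.96 with the slides of the descriptions. Pou2af1 averaged 7.20 ± 0.77 in +/L and 7.10 ± 0.65 in +/+ tumours, a difference of 0.10 (interval -0.83 to 1.03, limma adjusted p = 0.97), with within-slide values of 0.98, -0.89 and -1.04. It was 0.22 without mice 20 and 11, and 1.22 with age as a covariate. Mybl1 differed by 0.72 (limma adjusted p = 0.82), by 1.03 without mice 20 and 11 and by 2.12 with age as a covariate, but most of its arrays were not well above background. The within-slide values of Bcl6 were -1.15, -0.98 and -0.31, those of Fas -0.85, -0.52 and -0.61 and those of Spib -0.41, -0.57 and -1.72. The 2 Fas probes differed in sign, with 0.41 ± 0.49 (SE) at the dimmer probe (A_52_P73385), which lies on another cDNA record of the gene. Over the 10 tumours these 2 probes had Pearson's r = 0.73 (permutation p = 0.0075, adjusted 0.014). The gene pairs above used the brighter Fas probe only.

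**Figure D5:**
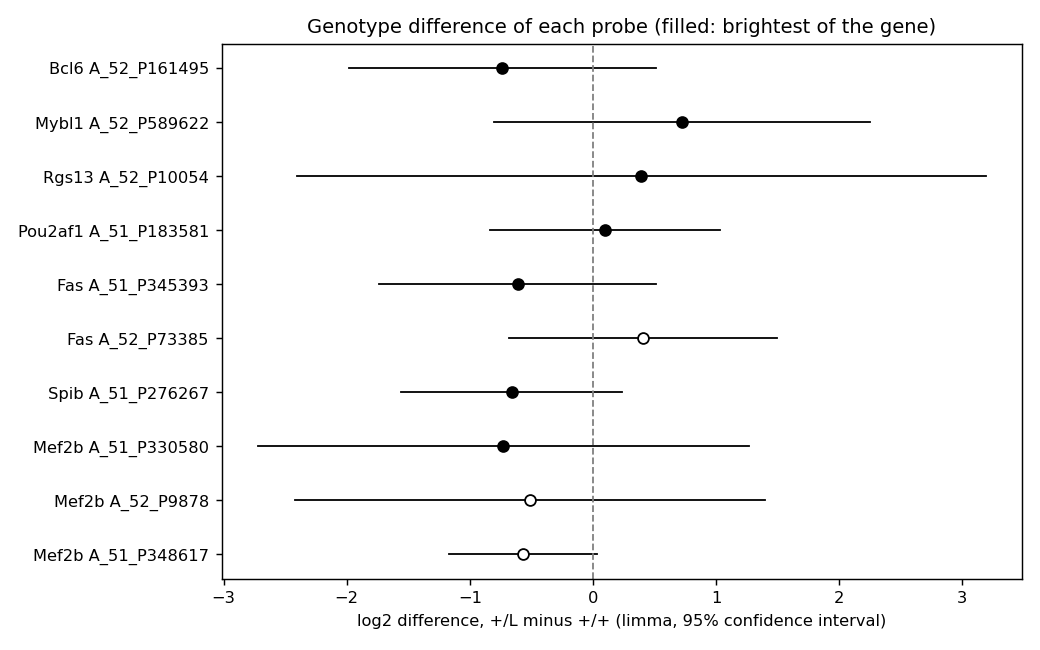
Difference between +/L and +/+ tumours (x axis, log2, +/L minus +/+) for the 10 probes kept, with 95% confidence intervals from limma; filled points are the brightest probe of each gene. All 10 intervals include 0, and those of Rgs13 (-2.41 to 3.19) and Mef2b (-2.72 to 1.26) are the widest of the filled points. The probe A_51_P348617, labelled Mef2b, is the one traced to Borcs8.

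Further germinal centre genes were looked at as a list of 18, of which 17 were kept. None passed, with 4 higher and 13 lower in +/L and a median difference of -0.25. S1pr2, which keeps B cells in the follicle centre, read -0.76, 0.10, 0.71, 0.98 and 2.06 in +/L mice 20, 517, 866, 23 and 688, and 0.11, 0.31, 0.95, 1.52 and 2.44 in +/+ mice 17, 40, 19, 101 and 11. Mouse 20 was lowest, and mice 11 and 688 were highest. Gcsam, a germinal centre signalling protein, read -5.85 and not well above background in the tumour of mouse 20. It lay at -2.16 to -0.83 in the rest of the +/L tumours and at -3.41 to -0.71 in the +/+ tumours. Cxcr5, the follicle homing receptor, read 1.33 in mouse 20, 2.50 to 4.53 in the rest of the +/L tumours and 2.94 to 5.13 in the +/+ tumours. Lmo2 went another way, with 1.32 in mouse 20, 0.48 to 1.31 in the other +/L tumours and 0.21 to 0.90 in the +/+ tumours. Between the genotypes these 4 genes differed by -0.45, -0.25, -0.89 and 0.33, with limma adjusted p-values of 0.74 to 0.96.

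Partners of the factors were examined too. Of 8 partners of OBF-1 and Spi-B, 0 passed, with 3 higher and 5 lower in +/L and a median of -0.41. Pou2f2, the OCT2 factor of B cells, averaged 0.63 ± 0.66 in +/L and 1.57 ± 0.48 in +/+ tumours (limma adjusted p = 0.60), and Pou2f1, the widely expressed OCT1 factor, 2.20 ± 0.75 and 2.03 ± 0.51. Spi1, which encodes PU.1, averaged -1.61 ± 0.50 in +/L and -0.77 ± 0.50 in +/+ tumours (limma adjusted p = 0.60), and Irf8 5.69 ± 1.12 and 6.33 ± 0.31. Of 7 BCL6 corepressors, 0 passed, with 2 higher and 5 lower and a median of -0.24, with Bcor at -0.37. Of 14 genes known as BCL6 targets for repression, 0 passed, with 5 higher and 9 lower and a median of -0.41, with the cell cycle inhibitor Cdkn1a at -1.15 and Prdm1 at -0.49 (limma adjusted p = 0.61 and 0.80). Their list score was -0.54 to 0.10 in +/L and 0.08 to 0.39 in +/+ tumours. Of 8 plasma cell genes, 0 passed, with 4 higher and 4 lower and a median of 0.00. Of 10 genes of the FAS death pathway, 0 passed, with 2 higher and 8 lower and a median of -0.24. Among these, the ligand Fasl differed by -0.36, the adaptor Fadd by -0.18, Casp8 by 0.15 and the inhibitor Cflar by -0.28.

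Relatives of A-MYB, RGS13 and MEF2B numbered 12, of which 0 passed, with 3 higher and 9 lower and a median of -0.15. Mybl2, the B-MYB factor of dividing cells, read 0.18, 0.49, 0.69, 2.15 and 2.46 in +/L mice 20, 517, 866, 688 and 23, and 0.65, 0.72, 1.45, 2.89 and 3.36 in +/+ mice 17, 40, 19, 11 and 101. As for Mef2b, +/+ mice 101 and 11 were highest. Myb differed by -0.06, Rgs1 by -0.52 and Mef2c by 0.25 (limma adjusted p = 0.77 to 0.99).

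Markers of cells that could carry these transcripts were compared between the genotypes too. The B-cell markers (14 kept, 3 higher and 11 lower in +/L, median -0.30) had scores of -1.71 to 0.996 in +/L and -0.09 to 0.35 in +/+ tumours. T-cell markers (12 kept, 1 higher and 11 lower, median -0.36) scored -1.73 to 0.77 in +/L and -0.82 to 1.42 in +/+ tumours. T follicular helper markers, which mark another cell type with BCL6 (6 of 8 kept, 1 higher and 5 lower, median -0.76), scored -1.92 to 0.31 and -0.31 to 1.06. Follicular dendritic cell markers (5 of 6 kept, 1 higher and 4 lower, median -0.45) scored -1.11 to 0.65 in +/L and -0.34 to 0.58 in +/+ tumours. Plasmacytoid dendritic cell markers, of cells that use Spi-B (7 kept, 3 higher and 4 lower, median -0.25), scored -0.99 to 1.09 and -1.06 to 0.76. Macrophage markers (8 kept, 2 higher and 6 lower, median -0.97) scored -2.25 to 1.14 in +/L and -0.55 to 1.04 in +/+ tumours. Mitosis genes (12 kept, 5 higher and 7 lower, median -0.04) scored -0.58 to 0.38 and -0.64 to 1.03, with Mki67 differing by -0.15. The 4 pan-leukocyte genes all had a lower mean in +/L (median -0.61), with scores of -1.17 to 0.15 in +/L and 0.05 to 0.50 in +/+ tumours. None of these genes passed in limma. The part of these cells in the levels of the 7 genes was not tested, other than by the B-cell score as a covariate, with which the differences of Bcl6, Fas, Spib and Mef2b were -0.65, -0.52, -0.50 and -0.64.

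The genes whose pattern over the 10 tumours was most like each member were found among all named probes kept, by Pearson's r. For Rgs13 they were Npm3, Wdr36 and Mef2b itself at its RefSeq probe (r = 0.93 each). For Mef2b they were Sall3, Hdac6 and Prmt5 (0.96 each). For Bcl6 they were Rngtt, Mtf1 and Lyz2 (0.97 each), and for Fas Urb2, Mtf1 and Lyz2 (0.97 each). For Spib they were Rbm4, Zfp592 and Swap70 (0.97, 0.96 and 0.95), for Pou2af1 Nkap, Cacna1h and Mrpl44 (0.94, 0.93 and 0.92) and for Mybl1, not well above background in 6 of the 10 tumours, 1810014B01Rik, Ssbp1 and Grpel2 (0.94 each). These are the highest values over all named probes kept, from 10 tumours, and are given as a description. Those of Bcl6 and Fas include +/L mouse 20, which lay far below the other tumours for both genes.

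Since several of the genes moved together, the 250 bases before their transcription starts were read from the RefSeq promoter table (GRCm38.p6), which held 7 windows for 6 of the 7 genes, all but Mybl1. They were searched on both strands for the octamer ATGCAAAT, for GAGGAA as an ETS core and for TTCNNNGAA, a pattern shared by BCL6 and STAT sites. None of the matches in these windows overlapped another. The octamer, to which OCT factors and OBF-1 bind, was in the Mef2b window only, at 85 bases before the start, and in 1.60% of all 32851 windows. It is in capitals here.
Mef2b, plus strand, chr8:70152511-70152760: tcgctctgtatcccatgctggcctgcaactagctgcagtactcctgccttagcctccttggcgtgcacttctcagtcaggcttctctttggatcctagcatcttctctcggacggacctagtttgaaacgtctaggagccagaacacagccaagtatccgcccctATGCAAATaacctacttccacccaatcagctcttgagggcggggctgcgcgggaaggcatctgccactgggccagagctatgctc
TTCNNNGAA was in both Bcl6 windows and in that of Fas, and in 7.02% of all windows. The Bcl6 window with 3 matches, at 168, 122 and 88 bases before the start, is shown with them in capitals.
Bcl6, minus strand, chr16:23981284-23981533: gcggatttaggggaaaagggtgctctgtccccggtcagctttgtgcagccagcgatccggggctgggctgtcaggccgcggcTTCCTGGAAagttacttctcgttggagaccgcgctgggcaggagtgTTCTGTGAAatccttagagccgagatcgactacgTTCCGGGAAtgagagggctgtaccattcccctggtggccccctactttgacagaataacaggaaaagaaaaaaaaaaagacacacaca
GAGGAA was in the other Bcl6 window and in 23.3% of all windows. The Rgs13, Spib and Pou2af1 windows held none of these letters. These are matches of letters only. Binding, and any part of it in the co-variation, was not tested.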

How the data were processed

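Intensity values were extracted by the authors from single-colour Agilent arrays with Agilent's Feature Extraction (version 10.5.1.1), with spatial and multiplicative detrending and no local background subtraction, per the file headers. The deposited value table holds log2 values for which no source used here gives the normalization. Flags (other columns) were also set by that software, per the file headers. Outlier and control spots were left out, 0 spots were saturated, spots of a probe were averaged, and the brightest kept probe stood for a gene. Probes were named through RefSeq, 25263 from an accession, 6233 from a symbol and 1603 from a synonym; 8075 have the files' own name. Replicates are separate mice. Genotypes were compared with limma 3.58.1 in R 4.3.3 (Benjamini-Hochberg over 26410 probes), tested on simulated data, and with exact two-sided permutation tests. Correlations used 100000 resamples, or all orders where fewer than 10 tumours entered. The 7 genes and the lists were chosen with earlier results of these data known. Named genes were the 7 members, further genes named in advance from the lists (some are not reported here), and the 3 genes most like each member; H60a, Tph1 and ENSMUST00000070897 were named after their values were seen. Alternatives changed background correction, scaling, filter, probe rule, variance model, slide, covariates and arrays.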

Additional observations from a re-analysis of the deposited data

Results flagged for a closer look

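Of 26 groups of 5 tumours checked (10 probes and 3 scores in each genotype), 4 held a tumour far from the other 4, where chance gives about 1 in 20. In +/L mouse 20, Bcl6 was at 1.91, with the next +/L tumour at 4.48, and Fas at 0.011, with the next at 2.21. Pou2af1 was at 5.89 in +/L mouse 866, with the next +/L tumour at 7.31, and at 8.25 in +/+ mouse 11, with the next +/+ tumour at 6.95.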

How the results depend on the processing

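No paired analysis was possible because the replicates carry separate mouse numbers that the genotypes do not share. None of the 7 genes passed under any of 24 alternatives, and Mybl1 was not measured in enough tumours to be tested under the stricter filter on dim probes. Over all probes, 1 passed with normexp and quantile normalization and 1 in the deposited value table (ENSMUST00000070897 in both), and 0 to 3 when a tumour was left out (3, adding Tph1 and H60a, without +/L mouse 517). At an unadjusted p under 0.05 the split was 870 higher of 2103, against 1057 of 2075 with scaling to the median of well-measured probes and 654 of 2222 with quantile normalization. Of 233 recomputed differences of the 10 probes, 15 turned their sign: Pou2af1 with the slide as a block (-0.13), Pou2af1 and Rgs13 with the slides of the descriptions, an alternative chosen after seeing the data (-0.24 each), Mef2b with age as a covariate (0.75 and, at the RefSeq probe, 0.82), Fas (0.010), Bcl6 (0.023) and the RefSeq probe of Mef2b (0.055) without mice 20 and 11, Rgs13 in the deposited table (-0.015), and Mybl1 and the dimmer Fas probe with quantile normalization (-0.019 and -0.050). With 1 tumour left out Pou2af1 ranged from -0.072 to 0.43 (below 0 without mouse 20 or 17) and Rgs13 from -0.71 to 1.02 (below 0 without mouse 688 or 17). The cause was not tested. The count of gene pairs that passed, 4 of 21, was 2 with normexp and quantile normalization. It was 1 without mice 20 and 11, and 1 with the means of those description slides removed. With 1 tumour left out it ranged from 3 to 9. That of relations with the scores, 0 of 21, ranged from 0 to 2. Bcl6 and Spib did not pass with quantile normalization, with normexp and quantile normalization, or in the deposited table (adjusted permutation p = 0.12, 0.11 and 0.12). Bcl6 and Fas did not pass with normexp and quantile normalization (adjusted permutation p = 0.052). In the deposited table Mybl1 and Fas passed in place of Bcl6 and Spib (adjusted permutation p = 0.023). The low signal of Mybl1 limits what can be said of it.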
